A study of Mus musculus with 6 samples.

Results

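The mitochondrial ribosomal proteins are taken here as the mouse protein-coding genes of GENCODE release M21 whose symbol is Mrpl or Mrps followed by a number and at most a letter from a to d. That rule used gene names only, no measured value, and found 78 genes, 49 named Mrpl and 29 named Mrps. Of these, 77 had a row among the 18951 genes of the deposited RNA-seq count table; the other, Mrpl53, is not analysed here. All 77 passed the filter on low counts, with at least 553 reads in a si-Rbm22 library and at least 359 in a library labelled si-Control.

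The study addressed how the transcriptome of cultured neonatal mouse heart muscle cells changes when Rbm22 is silenced, whose product binds RNA within the spliceosome. The si-Rbm22 group is 3 cultures transfected with small interfering RNA against Rbm22, and the si-Control group is 3 cultures given a scrambled sequence. In both groups the cells came from hearts of C57BL/6J pups at postnatal day 1, were reported as over 97.5% pure by staining for cardiac troponin T, and were collected 48 h after transfection. A transient knockdown leaves part of the target, and the number of pups behind each culture is not given in the sources used here.

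Total counts ranged from 34269042 to 37344860 per library. CPM below stands for reads of a gene relative to the library's total, with totals scaled by TMM for composition. Rbm22 was at 13.5 ± 0.892 CPM in si-Rbm22 libraries and 23.2 ± 1.79 CPM in libraries labelled si-Control (SD, n = 3 each; log2 fold change -0.78 with SE 0.097, edgeR adjusted p = 4.22e-06). The cell type named in the labels was not borne out in the libraries labelled si-Control. The 10 cardiomyocyte markers summed to 23261 to 36750 CPM in si-Rbm22 libraries and to 40.4 to 46.3 CPM in libraries labelled si-Control, where Mybpc3, Myl2, Myl7, Nppa and Pln were at 0. The 8 skeletal myoblast markers summed to 0.133 to 0.472 CPM in si-Rbm22 libraries, where Cacng1, Cdh15, Myf5 and Myod1 were at 0, and to 610 to 624 CPM in libraries labelled si-Control. Summed fibroblast markers were at 5696 to 5893 CPM in si-Rbm22 libraries and 21412 to 23247 CPM in libraries labelled si-Control, where Tcf21 was at 0. Of these 9 markers, 3 were higher and 5 lower in si-Rbm22 libraries (edgeR adjusted p under 0.05), so the sum hides both directions. Endothelial markers summed to 392 to 437 CPM in si-Rbm22 libraries and 5.21 to 6.04 CPM in libraries labelled si-Control, and epicardial markers to 2365 to 2596 CPM in si-Rbm22 libraries and 50.2 to 53.7 CPM in libraries labelled si-Control. Every difference below, like that of Rbm22 above, moves with these markers, and their part in it was not tested. In such bulk samples, fewer cells of a type and less RNA per cell cannot be told apart.

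Mitochondria make a small set of respiratory chain proteins on ribosomes of their own. The RNA of these ribosomes is transcribed inside the organelle, but all of their proteins are encoded in the nucleus, translated in the cytosol and imported. Part of the proteins have counterparts in bacterial ribosomes, and the rest are specific to mitochondria. Heart muscle, which draws most of its energy from respiration, depends strongly on this machinery. NRF1, ETS family factors (among them GABP) and YY1 are known regulators of nuclear genes for mitochondrial proteins.

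To show what the members share beyond their names, the stretches around their transcription starts were read for motifs of these factors. RefSeq promoters (GRCm38.p6, 250 bases before to 50 bases after a start) were found for 69 members, in 75 windows. The motif of NRF1 (GCGCA, any base, then GCGC) was present, on either strand, in 17.3% of member windows and in 9.04% of windows of tested genes. The ETS motif CCGGAAG was in 34.7% of member windows against 15.8% of windows of tested genes, and the YY1 motif AAGATGGCG in 10.7% against 2.62%. At least 1 of the 3 motifs lay in 54.7% of member windows, 24.7% of windows of tested genes and 13.6% of all 32851 windows of the same length. No match of a motif overlapped a match of a different motif in a member's window. The following lines give, from 200 bases before to 30 bases after the start, the promoters of 5 members: Mrpl35 and Mrpl33, which had the highest and the lowest fold change, Mrpl12 and Mrpl17, which hold the same motif but differed in direction, and Mrps11, which shares its start region with Mrpl46. Mrpl17 and Mrps11 were chosen after their values were seen. Mrpl12 and Mrpl17 do not stand for the other members with the NRF1 motif. Capitals mark an ETS match in Mrpl33 (chr5:31613751-31613980, plus strand) and an NRF1 match in Mrpl17 (chr7:105811058-105811287, minus strand). Those in Mrpl12 (chr11:120484437-120484666, plus strand) mark an NRF1 match and those in Mrps11 (chr7:78782931-78783160, plus strand) a YY1 match, both on the opposite strand. The stretch of Mrpl35 (chr6:71823755-71823984, minus strand) has no complete match inside the bases shown.
Mrpl35: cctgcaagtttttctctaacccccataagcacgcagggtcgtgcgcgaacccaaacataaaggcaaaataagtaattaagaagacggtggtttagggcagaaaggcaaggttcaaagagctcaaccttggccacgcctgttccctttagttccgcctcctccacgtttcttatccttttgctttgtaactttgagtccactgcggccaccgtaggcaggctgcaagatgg
Mrpl33: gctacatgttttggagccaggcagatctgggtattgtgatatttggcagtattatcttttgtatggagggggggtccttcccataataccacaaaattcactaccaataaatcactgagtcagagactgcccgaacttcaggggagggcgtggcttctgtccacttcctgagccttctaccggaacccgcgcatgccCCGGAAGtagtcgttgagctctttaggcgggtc
Mrpl12: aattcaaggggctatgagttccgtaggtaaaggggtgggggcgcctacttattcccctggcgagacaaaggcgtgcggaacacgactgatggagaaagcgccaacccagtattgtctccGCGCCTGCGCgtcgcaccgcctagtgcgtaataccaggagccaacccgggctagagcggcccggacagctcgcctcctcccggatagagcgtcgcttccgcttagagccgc
Mrpl17: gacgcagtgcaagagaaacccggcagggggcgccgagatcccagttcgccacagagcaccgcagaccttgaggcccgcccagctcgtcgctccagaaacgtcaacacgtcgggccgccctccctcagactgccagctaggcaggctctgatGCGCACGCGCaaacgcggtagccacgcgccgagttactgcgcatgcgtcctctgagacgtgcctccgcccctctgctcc
Mrps11: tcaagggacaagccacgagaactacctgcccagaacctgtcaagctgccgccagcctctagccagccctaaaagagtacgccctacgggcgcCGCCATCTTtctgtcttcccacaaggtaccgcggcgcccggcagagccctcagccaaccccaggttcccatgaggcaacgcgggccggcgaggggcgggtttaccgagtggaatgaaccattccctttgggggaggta
These matches are a description of the letters and not of binding.

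Most mitochondrial ribosomal protein genes were modestly higher in the si-Rbm22 libraries, and a smaller set was lower. Of the 77 genes, 47 rose, 15 fell and 15 did not pass the test (edgeR quasi-likelihood, adjusted p under 0.05 over all 14621 tested genes). Across all tested genes 82% passed (82.8% at an unadjusted p under 0.05), 43.1% higher and 38.9% lower, so the members' share of 80.5% was close to the background while 61% of members and 43.1% of all genes were higher. The median log2 fold change was 0.38 for the members and 0.05 for all tested genes. The 77 values ran between -1.26 and 1.62. Only 7 members rose and 2 fell at least 2-fold, against 24.4% and 18.7% of all tested genes. The members that stayed within 2-fold made up 88.3%, compared with 56.6% of all tested genes and 70.8% of the 6114 genes whose mean level lay in the same range. The members' groups did not overlap for 64 of 77 genes (83.1%), and over all tested genes this held for 84.2%.

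**Figure D1:**
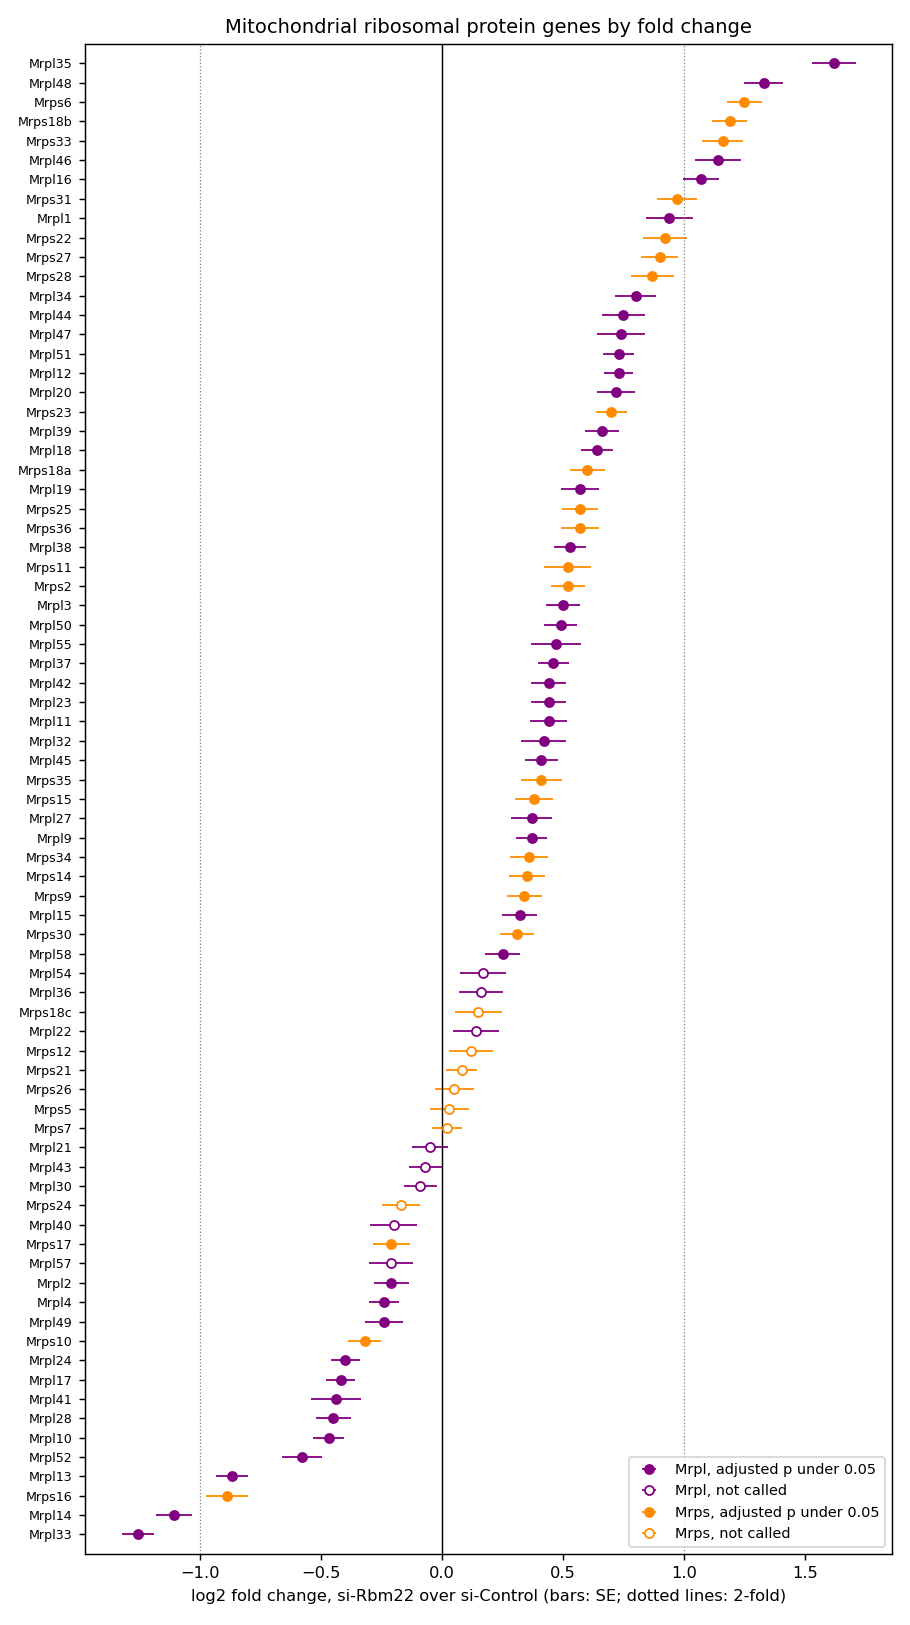
Log2 fold changes of the 77 mitochondrial ribosomal protein genes, si-Rbm22 over si-Control, from highest to lowest, with bars for the SE and dotted lines at 2-fold; filled points passed the test. The values run from 1.62 for Mrpl35 to -1.26 for Mrpl33, and most filled points lie right of 0.

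Together the members took 0.311%, 0.292% and 0.308% of all reads in si-Rbm22 libraries, against 0.266%, 0.258% and 0.269% in libraries labelled si-Control. The lowest si-Rbm22 share was above the highest share of the libraries labelled si-Control. The ratio of the mean shares was 1.15. It was 1.10 for the genes named Mrpl and 1.25 for those named Mrps. Of 48 Mrpl genes, 28 rose (58.3%) and 12 fell (25%), and the median log2 fold change was 0.39. Of 29 Mrps genes, 19 rose (65.5%) and 3 fell (10.3%), and the median was 0.38. Over all tested genes 43.1% were higher and 38.9% lower.

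Among large subunit proteins with a bacterial counterpart, 17 of 30 rose and 9 fell (median log2 fold change 0.37). This class, like the others by structure, was drawn up after the values were seen and is described without a test. It held both ends of the family. Mrpl35 (chromosome 6, 71812997 to 71826969) had 33.2, 32.2 and 32 CPM in si-Rbm22 libraries, against 10.1, 9.89 and 11.6 CPM in libraries labelled si-Control (log2 fold change 1.62 with SE 0.091, edgeR adjusted p = 7.27e-10). All 3 si-Rbm22 libraries were nearly level and far above the others. Mrpl16, whose bacterial relative lies near the tRNA binding sites, had 36.7, 35.8 and 37 CPM in si-Rbm22 libraries and 17.4, 17.7 and 17.1 CPM in libraries labelled si-Control (log2 fold change 1.07 with SE 0.074, edgeR adjusted p = 7.52e-09). Again the groups did not overlap.

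Mrpl33 (chromosome 5, 31596935 to 31664384), a short protein of the large subunit, was the member that fell furthest. It had 42.4, 39.4 and 45.6 CPM in si-Rbm22 libraries, against 99.3, 102 and 105 CPM in libraries labelled si-Control (log2 fold change -1.26 with SE 0.066, edgeR adjusted p = 3.29e-10). Mrpl14, a protein of the subunit interface on which the assembly factor MALSU1 docks in human mitochondria, had 23.6, 20.6 and 22.4 CPM in si-Rbm22 libraries, against 48.3, 47 and 48.7 CPM in libraries labelled si-Control (log2 fold change -1.11 with SE 0.074, edgeR adjusted p = 5e-09). Mrpl13 had 39.5, 37.7 and 42.7 CPM in si-Rbm22 libraries and 70, 74.4 and 75.5 CPM in libraries labelled si-Control (log2 fold change -0.87 with SE 0.067, edgeR adjusted p = 2.25e-08). In all 3 genes the highest si-Rbm22 library was below the lowest of the others. Mrpl28 (log2 fold change -0.45, edgeR adjusted p = 4.78e-05) and Mrpl17 (-0.42, edgeR adjusted p = 1.93e-05) also fell. Exons of Mrpl14 share 106 bases with Tmem63b on the opposite strand, which rose (log2 fold change 0.53), and exons of Mrpl13 share 330 bases with Mtbp, which fell (-0.78). Without the strand setting of the counting, reads on shared bases cannot be told apart.

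**Figure D2:**
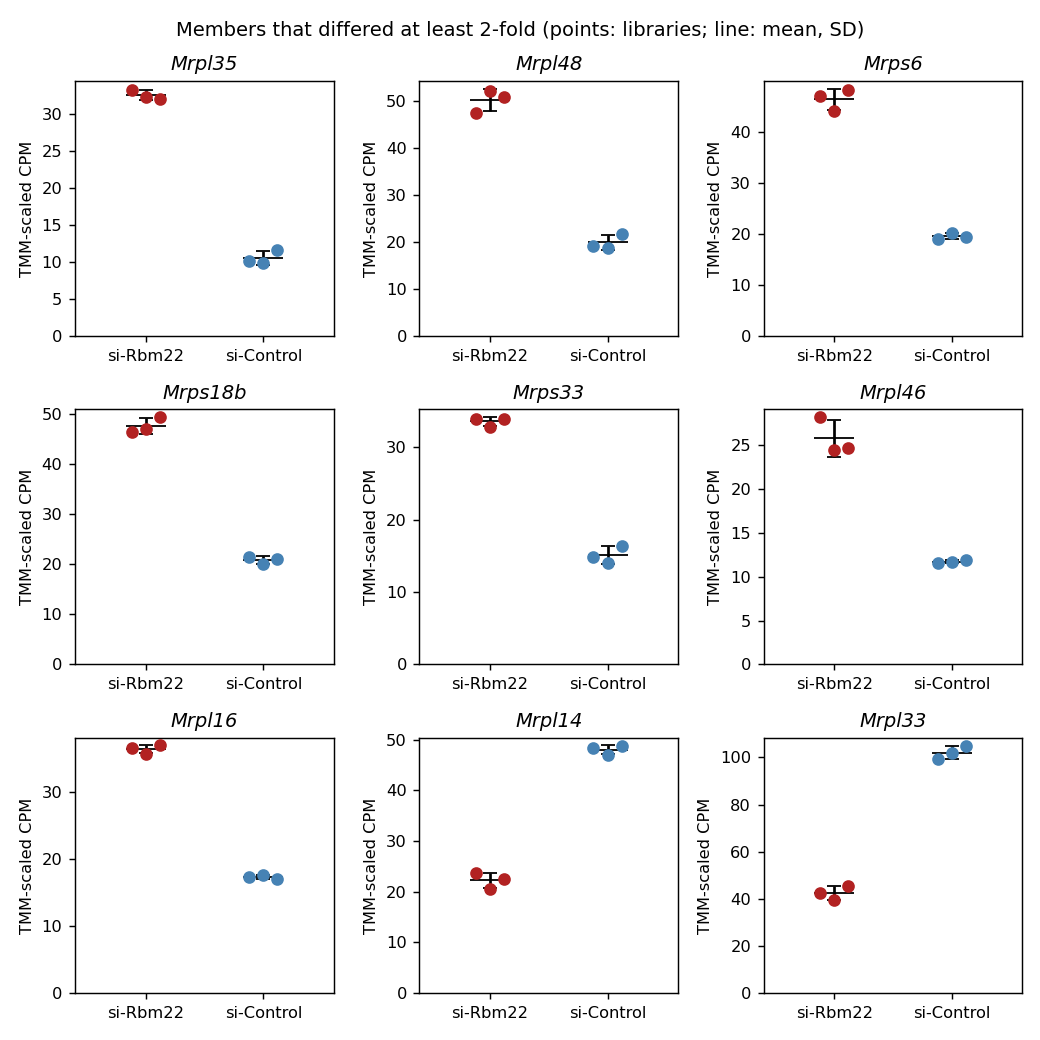
TMM-scaled CPM per library of the 9 members that passed the test with at least a 2-fold difference, si-Rbm22 left and si-Control right, with the mean and SD of 3 libraries. Mrpl35, Mrpl48, Mrps6, Mrps18b, Mrps33, Mrpl46 and Mrpl16 are higher and Mrpl14 and Mrpl33 lower in si-Rbm22, and no panel has overlapping groups.

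Mrpl12 and Mrpl10, 2 proteins of the stalk, which recruits the GTPases of translation, moved in opposite directions. Mrpl12, which attaches to Mrpl10 in several copies and is also known to bind the mitochondrial RNA polymerase, had 109, 98.5 and 102 CPM in si-Rbm22 libraries, against 65.2, 60.6 and 61.7 CPM in libraries labelled si-Control (log2 fold change 0.73 with SE 0.061, edgeR adjusted p = 6.42e-08). Mrpl10, a protein at the stalk base, had 49.8, 44.8 and 45.6 CPM in si-Rbm22 libraries and 67, 62.4 and 64.7 CPM in libraries labelled si-Control (log2 fold change -0.47 with SE 0.065, edgeR adjusted p = 1.22e-05). The reads of Mrpl12 per read of Mrpl10 were 2.19, 2.20 and 2.25 in si-Rbm22 libraries and 0.973, 0.972 and 0.954 in libraries labelled si-Control, with a log2 difference of 1.20. These ratios within a library do not depend on the scaling. In an exact two-sided permutation test p was 0.1, the smallest that 3 libraries against 3 allow (0.1 after adjustment over 3 ratios).

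Of 20 large subunit proteins specific to mitochondria, 13 rose and 3 fell (median log2 fold change 0.42). These shares were 65% and 15%, beside 43.1% and 38.9% of all tested genes. Mrpl48, Mrpl46 and Mrpl52 belong to the central protuberance, the part of the large subunit that faces the tRNAs. Mrpl48 had 47.6, 52.2 and 50.9 CPM in si-Rbm22 libraries, against 19.2, 18.8 and 21.8 CPM in libraries labelled si-Control (log2 fold change 1.33 with SE 0.080, edgeR adjusted p = 1.51e-09). Mrpl46 had 28.2, 24.4 and 24.6 CPM in si-Rbm22 libraries and 11.5, 11.7 and 11.9 CPM in libraries labelled si-Control (log2 fold change 1.14 with SE 0.095, edgeR adjusted p = 5.54e-08). Neither gene had overlapping groups. Mrpl52 went the other way, with 32.3, 26.4 and 31.2 CPM in si-Rbm22 libraries, against 42.5, 45.3 and 46.7 CPM in libraries labelled si-Control (log2 fold change -0.58 with SE 0.084, edgeR adjusted p = 1.78e-05). Mrpl41 also fell (log2 fold change -0.44 with SE 0.104, edgeR adjusted p = 0.00145). Mrpl58, a peptidyl-tRNA hydrolase that became a ribosomal protein, rose by 0.25 on the log2 scale (SE 0.071, edgeR adjusted p = 0.00515). Mrpl48 has a processed pseudogene 98.1% identical over its coding bases and shares 708 exonic bases with Rab6a, so its reads are uncertain. Mrpl41 also has a processed copy.

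In the small subunit the counts stood further apart between the classes. Of 10 proteins specific to mitochondria, 9 rose and 0 fell (median log2 fold change 0.80). By edgeR at an unadjusted p under 0.05, by DESeq2 and by limma-voom the count of falls was also 0. Of 16 proteins with a bacterial counterpart, 7 rose, 3 fell and 6 did not pass, with a median of 0.14. Rises and falls were 90% and 0% of those specific to mitochondria and 43.8% and 18.8% of those with a bacterial counterpart. Over all tested genes they were 43.1% and 38.9%, so rises in the class with a bacterial counterpart were near the background. No test of the difference between the classes was made, and the classes were chosen with the values known. The proteins specific to mitochondria took 0.0394% ± 0.00149 of reads in si-Rbm22 libraries and 0.0251% ± 0.000392 in libraries labelled si-Control, a ratio of 1.57 (SD, n = 3 each). Those with a bacterial counterpart took 0.0565% ± 0.00129 in si-Rbm22 libraries and 0.0526% ± 0.00141 in libraries labelled si-Control, a ratio of 1.07. Of the 10 specific to mitochondria, Mrps18b, Mrps26 and Mrps33 have near-identical copies. Mrps25, Mrps27 and Mrps34 share exonic bases with counted genes, so reads of most of this class are uncertain. Part of the 16 with a bacterial counterpart have the same limits. When Dap3, Chchd1, Aurkaip1 and Ptcd3, small subunit proteins without a bacterial counterpart but with other names, are added to the 10, the counts are 10 higher and 2 lower of 14 and the median is 0.63.

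Mrps33 led the small subunit proteins specific to mitochondria together with Mrps18b. It had 33.9, 32.8 and 33.9 CPM in si-Rbm22 libraries, against 14.8, 14 and 16.4 CPM in libraries labelled si-Control (log2 fold change 1.16 with SE 0.085, edgeR adjusted p = 1.45e-08). Mrps31 had 31.6, 31 and 34.3 CPM in si-Rbm22 libraries and 15.7, 17.2 and 16.7 CPM in libraries labelled si-Control (log2 fold change 0.97 with SE 0.083, edgeR adjusted p = 7.38e-08). In both genes every si-Rbm22 library was the higher. Mrps27, an RNA-binding pentatricopeptide repeat protein that was named after its values were seen, rose by 0.90 (SE 0.076, edgeR adjusted p = 6.58e-08). Mrps25 and Mrps35 rose by 0.57 and 0.41 on the log2 scale. Exons of Mrps25 share 4590 bases (69.8%) with Nr2c2 on the opposite strand, which did not pass (log2 fold change -0.08). Those of Mrps27 share 506 bases (24.2%) with 6430562O15Rik, also on the opposite strand. The reads of Mrps25 and Mrps27 are therefore uncertain. Mrps26 was the member of this class that did not pass, with 37.2, 35.8 and 37.7 CPM in si-Rbm22 libraries and 39.1, 35.9 and 32.2 CPM in libraries labelled si-Control (log2 fold change 0.05, edgeR adjusted p = 0.6). Its groups overlapped. A processed copy 99.7% identical to the coding bases of Mrps33 makes its reads uncertain.

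Among small subunit proteins with a bacterial counterpart, Mrps6 and Mrps16 stood at the ends. Mrps6 had 46.9, 44.1 and 48.1 CPM in si-Rbm22 libraries, against 19, 20.2 and 19.4 CPM in libraries labelled si-Control (log2 fold change 1.25 with SE 0.073, edgeR adjusted p = 1.18e-09). Mrps16, mutated in a human disorder of mitochondrial translation, had 29.8, 23.2 and 25.1 CPM in si-Rbm22 libraries, against 48.5, 47.3 and 48.5 CPM in libraries labelled si-Control (log2 fold change -0.89 with SE 0.088, edgeR adjusted p = 3.67e-07). Both had groups that did not overlap. Mrps6 shares 159 exonic bases on the same strand with Slc5a3, an inositol transporter gene that rose by 1.48 on the log2 scale (SE 0.103), and Mrps16 has processed copies. Mrps12, a protein of the decoding centre, had 22.6, 21.5 and 20.1 CPM in si-Rbm22 libraries, against 20.9, 18.2 and 19.9 CPM in libraries labelled si-Control (log2 fold change 0.12 with SE 0.091, edgeR adjusted p = 0.227), and its groups overlapped. Mrps7 and Mrps5 were nearest to 0, at log2 fold changes of 0.02 (SE 0.063) and 0.03 (SE 0.082), and the large subunit genes Mrpl21 and Mrpl43 were at -0.05 and -0.07. Their directions depended on the scaling or on single libraries for Mrps7, Mrps5 and Mrps26. Mrps10 fell by 0.32 (SE 0.069, edgeR adjusted p = 0.000651).

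The 3 genes named Mrps18 are paralogs of a single bacterial protein, and their products sit at different places. Mrps18c is the direct counterpart in the small subunit, Mrps18b occupies another site in the small subunit, and Mrps18a lies in the large subunit. At those other sites bacteria have no counterpart, so the systematic names of both put them among the proteins specific to mitochondria. Mrps18b had 46.3, 46.9 and 49.4 CPM in si-Rbm22 libraries, against 21.5, 20 and 21.1 CPM in libraries labelled si-Control (log2 fold change 1.19 with SE 0.072, edgeR adjusted p = 1.62e-09). Mrps18a had 40.3, 39.5 and 39.3 CPM in si-Rbm22 libraries and 25.2, 25.7 and 27.9 CPM in libraries labelled si-Control (log2 fold change 0.60 with SE 0.072, edgeR adjusted p = 2.8e-06). Both were higher in every si-Rbm22 library. Mrps18c had 21, 18.5 and 19.2 CPM in si-Rbm22 libraries and 17.6, 16.3 and 19 CPM in libraries labelled si-Control (log2 fold change 0.15 with SE 0.097, edgeR adjusted p = 0.164), with overlapping groups. The reads of Mrps18b per read of Mrps18c were 2.20, 2.54 and 2.57 in si-Rbm22 libraries and 1.22, 1.23 and 1.11 in libraries labelled si-Control, a log2 difference of 1.04. Against Mrps18a the difference was 0.59. Each had the smallest p of the exact permutation test, 0.1, before and after adjustment over 3 ratios. A processed copy covers 54.3% of the coding bases of Mrps18b.

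**Figure D3:**
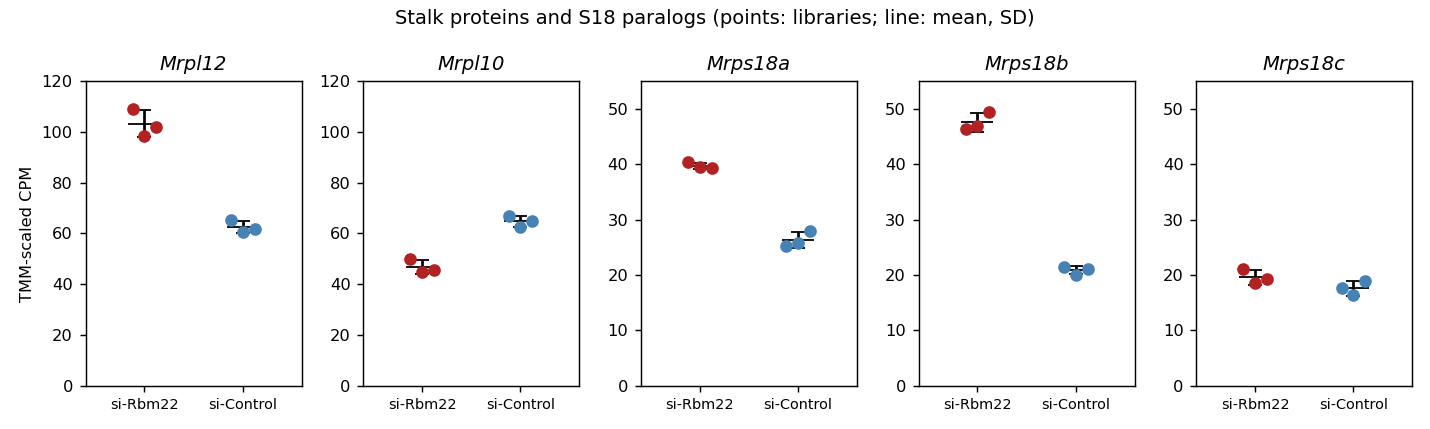
TMM-scaled CPM per library of the stalk genes Mrpl12 and Mrpl10 and of the paralogs Mrps18a, Mrps18b and Mrps18c, si-Rbm22 left and si-Control right, with the mean and SD of 3 libraries. Mrpl12 is higher and Mrpl10 lower in si-Rbm22, and of the paralogs only Mrps18c has overlapping groups.

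The name of a member does not always give its place. Mrps30 sits in the large subunit despite its name. It had 38.9, 41.7 and 42.5 CPM in si-Rbm22 libraries and 32.9, 34.4 and 32.2 CPM in libraries labelled si-Control (log2 fold change 0.31 with SE 0.070, edgeR adjusted p = 0.00102), without overlap. Mrps36 is now regarded as a subunit of the alpha-ketoglutarate dehydrogenase complex. It had 34.5, 31.4 and 31.7 CPM in si-Rbm22 libraries and 20.7, 23.1 and 22 CPM in libraries labelled si-Control (log2 fold change 0.57 with SE 0.080, edgeR adjusted p = 1.39e-05), again without overlap, and has 4 processed copies.

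Ribosomal proteins of mitochondria that carry other names gave few rises: 1 of 5 rose and 3 fell (median log2 fold change -0.33). Over all tested genes 43.1% were higher and 38.9% lower, which is the background for each list below. Gadd45gip1, a large subunit protein at the exit of the nascent chain, had 25.5, 24.9 and 29.9 CPM in si-Rbm22 libraries, against 70.5, 70.4 and 66.5 CPM in libraries labelled si-Control (log2 fold change -1.37 with SE 0.078, edgeR adjusted p = 8.34e-10). Ptcd3, which lies where the message enters the small subunit, had 71.4, 63.8 and 68.5 CPM in si-Rbm22 libraries and 29, 32.8 and 34.2 CPM in libraries labelled si-Control (log2 fold change 1.09 with SE 0.076, edgeR adjusted p = 8.53e-09). The groups were well apart in both. The small subunit genes Aurkaip1 and Dap3, where Dap3 encodes a GTP-binding protein, fell by 0.61 (SE 0.073) and 0.33 (SE 0.064) on the log2 scale. Chchd1 did not pass (log2 fold change -0.12 with SE 0.084, edgeR adjusted p = 0.212).

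Factors that build the mitochondrial ribosome were divided, with 9 of 27 higher and 10 lower (median log2 fold change -0.06). These shares were 33.3% and 37%, beside 43.1% and 38.9% of all tested genes. Fastkd2, needed for the large ribosomal RNA, averaged 26.8 ± 0.815 CPM in si-Rbm22 libraries and 13.5 ± 0.528 CPM in libraries labelled si-Control (SD, n = 3 each; log2 fold change 0.99). C1qbp and the GTPase gene Gtpbp10 rose by 0.76 and 0.81. Mettl15, a methyltransferase of the small ribosomal RNA, averaged 8.23 ± 0.553 CPM in si-Rbm22 libraries and 15.1 ± 1.17 CPM in libraries labelled si-Control (SD, n = 3 each; log2 fold change -0.88), and Ngrn (-0.55) and Mpv17l2 (-0.52) also fell. With at least a 1.5-fold change required, 3 rose and 2 fell.

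Factors of mitochondrial translation and message handling were 9 higher and 4 lower of 17 (median log2 fold change 0.36), or 2 lower at 1.5-fold. Without the size limit the shares were 52.9% and 23.5%, beside 43.1% and 38.9% of all tested genes. Gfm1, the elongation factor that moves the ribosome along the message, had 138, 132 and 122 CPM in si-Rbm22 libraries, against 50.9, 47.4 and 48.3 CPM in libraries labelled si-Control (log2 fold change 1.42 with SE 0.063, edgeR adjusted p = 6e-11). Lrpprc and Slirp encode partners in a complex that stabilizes mitochondrial messages. Lrpprc had 137, 122 and 124 CPM in si-Rbm22 libraries and 59.8, 59 and 58.3 CPM in libraries labelled si-Control (log2 fold change 1.12 with SE 0.061, edgeR adjusted p = 5.34e-10). Slirp had 14.8, 16.1 and 18.5 CPM in si-Rbm22 libraries, against 63.5, 58.6 and 70 CPM in libraries labelled si-Control (log2 fold change -1.96 with SE 0.094, edgeR adjusted p = 1.57e-10). The partners thus differed in opposite directions, without overlap in either. The release factor gene Mtrf1 averaged 7.95 ± 1.39 CPM in si-Rbm22 libraries and 0.132 ± 0.111 CPM in libraries labelled si-Control (SD, n = 3 each). Guf1 and 2810006K23Rik fell by 0.54 and 0.59 on the log2 scale.

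Mitochondrial tRNA synthetases were 8 higher and 4 lower of 17 (median log2 fold change 0.21). These shares were 47.1% and 23.5%, beside 43.1% and 38.9% of all tested genes. Yars2, Mars2 and Cars2, for tyrosine, methionine and cysteine, rose by 1.16, 0.96 and 0.71 on the log2 scale. Lars2, for leucine, fell by 0.88 on the log2 scale (SE 0.184, edgeR adjusted p = 0.00354). It had 64.2, 56.5 and 55.6 CPM in si-Rbm22 libraries and an uneven 94.3, 141 and 89.5 CPM in libraries labelled si-Control. Hars2, for histidine, fell by 0.20 (SE 0.076, edgeR adjusted p = 0.0241). Only 2 synthetases were lower when si-Control replicate 1 or si-Rbm22 replicate 3 was left out.

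The messages of the mitochondrial genome, which these ribosomes translate, were higher as well. Of its 13 messages, 12 rose and 0 fell (median log2 fold change 1.53). The count of falls was also 0 by edgeR at an unadjusted p under 0.05, by DESeq2 and by limma-voom. They took 5.67%, 5.70% and 5.33% of reads in si-Rbm22 libraries, against 2.10%, 2.14% and 2.35% in libraries labelled si-Control. Those with the smallest p, mt-Nd2, mt-Nd5 and mt-Nd1, had log2 fold changes of 2.68, 1.96 and 1.72. The ratio of the mean shares was 2.54, beside 1.15 for the mitochondrial ribosomal proteins. The counts of these messages were very uneven, so the share mostly reflects the most counted. In si-Rbm22 libraries mt-Co1 averaged 26697 CPM, but mt-Co2 123, mt-Nd3 2.94 and mt-Atp8 3.76 CPM. In libraries labelled si-Control they averaged 11429, 51.4, 1.26 and 0.467 CPM. These genes were named after their values were seen. The message that did not pass was mt-Nd6, which had 89.3, 84.8 and 83.4 CPM in si-Rbm22 libraries and 69.9, 59.2 and 108 CPM in libraries labelled si-Control. Nuclear copies of mitochondrial DNA can share reads with these messages.

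Regulators of mitochondrial biogenesis were 7 higher and 0 lower of 12 by edgeR (median log2 fold change 0.34), and 0 were lower at an unadjusted p under 0.05, by DESeq2 and by limma-voom. Their share of rises was 58.3%, while 43.1% of all tested genes were higher and 38.9% lower. The coactivator gene Ppargc1a, a main regulator of mitochondrial content in heart, averaged 62.1 ± 2.33 CPM in si-Rbm22 libraries and 0.203 ± 0.102 CPM in libraries labelled si-Control (SD, n = 3 each). Its relative Ppargc1b rose by 2.25 and the nuclear receptor gene Esrra by 1.15 on the log2 scale. The genes for the factors whose motifs were searched differed less. Gabpa, the ETS subunit of GABP, had 99.9, 94.7 and 99.5 CPM in si-Rbm22 libraries and 74.2, 72.2 and 78.9 CPM in libraries labelled si-Control (log2 fold change 0.38 with SE 0.058, edgeR adjusted p = 2.87e-05). Yy1 rose by 0.54 (SE 0.066, edgeR adjusted p = 3.1e-06). Nrf1 had 30.5, 29.6 and 31 CPM in si-Rbm22 libraries and 32, 34.2 and 34.6 CPM in libraries labelled si-Control (log2 fold change -0.15 with SE 0.071, edgeR adjusted p = 0.07). Gabpa and Yy1 were named after their values were seen. Up to 2 regulators were lower under other settings, the most without si-Rbm22 replicate 3.

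Of 79 tested genes of the cytosolic ribosome, the counterpart outside the organelle, 10 rose and 64 fell (median log2 fold change -0.71). Their reads made up 2.50% ± 0.113 of the total in si-Rbm22 libraries and 3.95% ± 0.138 in libraries labelled si-Control (SD, n = 3 each), a ratio of 0.632. The falls with the smallest p were those of Rpl39, Rps29 and Rpl17, with log2 fold changes of -2.01, -1.54 and -1.57. Rps29 and Rpl17 averaged 124 ± 3.54 and 223 ± 6.11 CPM in si-Rbm22 libraries, and 360 ± 13.7 and 661 ± 31.2 CPM in libraries labelled si-Control. The rises with the smallest p were larger: Rpl29, Rps2 and Rpl26 had log2 fold changes of 3.23, 2.71 and 2.16. Rps2 averaged 1022 ± 29.5 CPM in si-Rbm22 libraries and 156 ± 6.83 CPM in libraries labelled si-Control (SD, n = 3 each). Many of these genes have near-identical copies, so single values are uncertain. The cell division genes of the G2 and M phases also differed: all 10 fell, with log2 fold changes of -1.67 for Racgap1, -1.43 for Kif23 and -1.75 for Ccnb2, and their sum was 606 to 722 CPM in si-Rbm22 libraries and 1724 to 1762 CPM in libraries labelled si-Control. Their part in the difference was not tested.

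**Figure D4:**
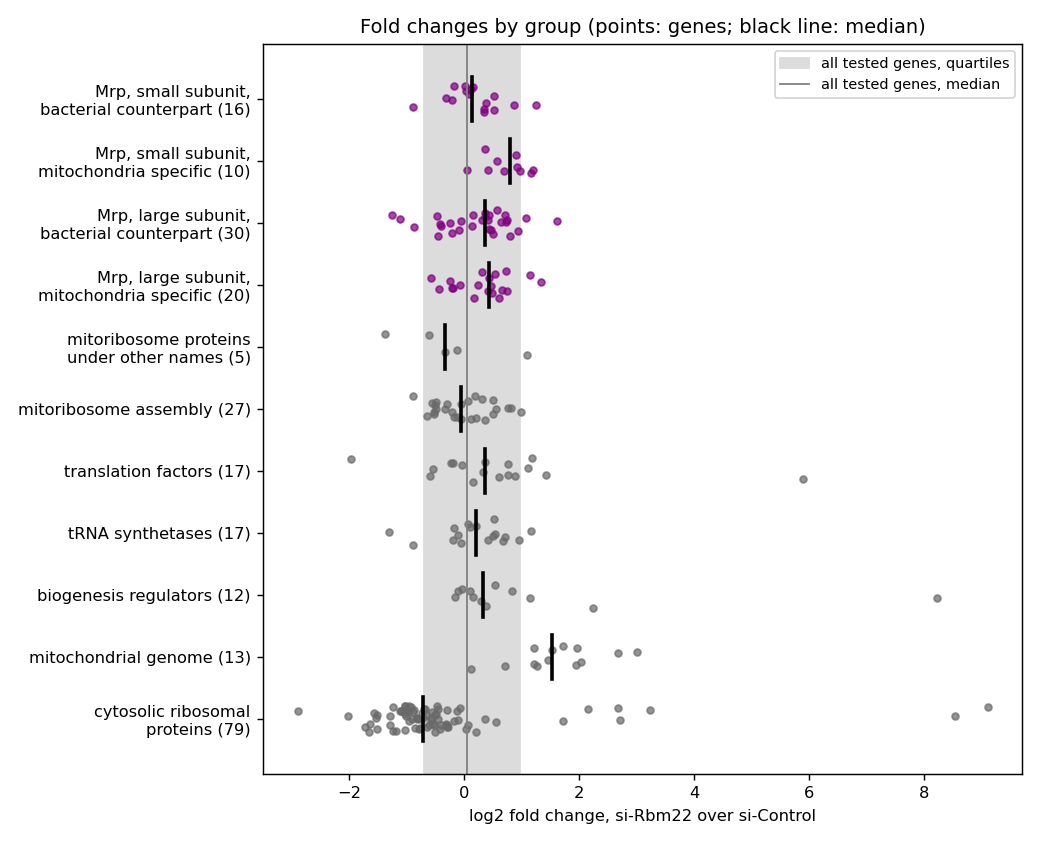
Log2 fold changes, si-Rbm22 over si-Control, of each gene in 11 groups, with the number of genes in parentheses, black lines at the group medians and grey shading for the quartiles of all tested genes. Small subunit Mrp genes specific to mitochondria have a median of 0.80, messages of the mitochondrial genome 1.53, and cytosolic ribosomal proteins -0.71.

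Several members start back to back with another gene, so that a short stretch of DNA lies between or under both starts. In all, 33 members had a protein-coding gene on the other strand with its annotated start within 1000 bases. Of the 33 pairs, with Mrpl46 and Mrps11 counted from each side, both genes passed the test in 19, in the same direction in 12 and in opposite directions in 7. Over all tested genes 82% passed, 43.1% higher and 38.9% lower, and no such count was made for other pairs of genes. Pairs with overlapping starts can share exonic bases, 173 for Mrpl46 and Mrps11, so their values are not independent. Mrpl46 and Mrps11 have overlapping starts, 412 bases apart, and both rose. Mrps11 had 20.1, 23.2 and 20.3 CPM in si-Rbm22 libraries and 15.5, 14.8 and 14 CPM in libraries labelled si-Control (log2 fold change 0.52 with SE 0.097, edgeR adjusted p = 0.000189), a smaller difference than the 1.14 of Mrpl46. Mrps18b starts 45 bases from Ppp1r10, a nuclear phosphatase regulator gene, which averaged 127 ± 3.06 CPM in si-Rbm22 libraries and 67.1 ± 3.54 CPM in libraries labelled si-Control (SD, n = 3 each; log2 fold change 0.92). Mrpl49 and Fau, which encodes a cytosolic ribosomal protein, both fell (log2 fold changes -0.24 and -1.50, starts 59 bases apart).

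Neighbours in opposite directions included Mrpl51 and Ncapd2, a condensin gene, with starts 100 bases apart. Mrpl51 rose by 0.73 on the log2 scale, while Ncapd2 averaged 86.1 ± 6.84 CPM in si-Rbm22 libraries and 175 ± 5.47 CPM in libraries labelled si-Control (SD, n = 3 each; log2 fold change -1.02 with SE 0.065, edgeR adjusted p = 2.81e-09). Mrpl14 and Tmem63b also differed in sign, as did Mrpl41 and Pnpla7 (log2 fold changes -0.44 and 1.07). Mrps12 did not pass, whereas Sars2, the serine tRNA synthetase gene that starts 172 bases away, rose by 0.51 (SE 0.115, edgeR adjusted p = 0.000923).

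Levels were compared between members per kb of exon. By this measure the median Mrpl gene was at 19.1 CPM per kb in si-Rbm22 libraries and 14.5 CPM per kb in libraries labelled si-Control, and the median Mrps gene at 15.6 CPM per kb in si-Rbm22 libraries and 9.98 CPM per kb in libraries labelled si-Control. Mrps21, Mrpl12, Mrpl34, Mrpl14 and Mrpl18 had the highest levels over both groups. Of these, Mrps21 has a processed copy, and Mrpl12, Mrpl14 and Mrpl18 share exonic bases with counted genes. Mrps21 was at 59.6 ± 1.32 CPM per kb in si-Rbm22 libraries and 56.5 ± 1.6 CPM per kb in libraries labelled si-Control (SD, n = 3 each). Mrpl12 was at 67.5 ± 3.56 CPM per kb in si-Rbm22 libraries, above Mrps21, and at 40.8 ± 1.58 CPM per kb in libraries labelled si-Control, below it. Mrpl34 was at 57.5 ± 3.82 CPM per kb in si-Rbm22 libraries, a spread that covers the mean of Mrps21, and at 33.1 ± 1.93 CPM per kb in libraries labelled si-Control. Mrpl14 stood in place 23 of 77 in si-Rbm22 libraries and in place 2 in libraries labelled si-Control. The lowest levels were those of Mrps10, Mrpl48, Mrps25, Mrpl32 and Mrps35. Processed copies of Mrps10, Mrpl48 and Mrpl32 make their reads uncertain. Mrps25 shares 4590 exonic bases (69.8%) with Nr2c2, so its low level is uncertain as well. Mrps35, the lowest, was at 3.77 ± 0.337 CPM per kb in si-Rbm22 libraries and 2.84 ± 0.132 CPM per kb in libraries labelled si-Control, close to Mrpl32 at 3.83 ± 0.208 CPM per kb in si-Rbm22 libraries and 2.87 ± 0.0863 CPM per kb in libraries labelled si-Control (SD, n = 3 each). The order depended on the length used: 19 members have exons that together are over 2 times the longest transcript, and both ends changed when the longest transcript was used. Mrpl33 then moved from place 50 to place 1, at 88.9 ± 6.49 CPM per kb in si-Rbm22 libraries and 213 ± 5.9 CPM per kb in libraries labelled si-Control (SD, n = 3 each), and Mrpl42 from place 18 to place 2. Mrps21 was then in place 3, Mrpl12 in place 5, Mrpl14 in place 6, Mrpl34 in place 10 and Mrpl18 in place 15, and Mrps10 moved from place 73 to place 29. Mrpl42 was named after its values were seen. As a description across 77 genes of the same libraries, Spearman's rho between the group means was 0.86.

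**Figure D5:**
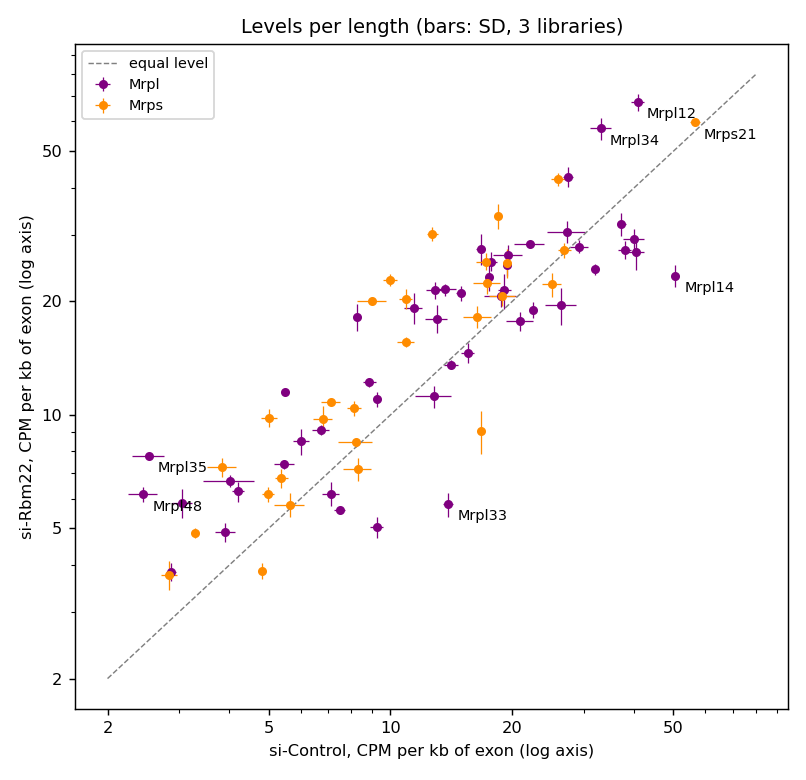
Mean CPM per kb of exon of 77 mitochondrial ribosomal protein genes on log axes, si-Rbm22 on the vertical and si-Control on the horizontal axis, with bars for the SD of 3 libraries and a dashed line of equal level. Mrps21 lies close to the line, Mrpl35 and Mrpl48 lie above it and Mrpl33 and Mrpl14 below it.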

How the data were processed

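RNA sequencing libraries of 3 si-Rbm22 and 3 si-Control cultures were analysed. Per the labels' protocols, total RNA came from a TRIzol extraction and went into the VAHTS Universal V6 library kit. Tools named in the submitters' processing notes are fastp, HISAT2, HTSeq, DESeq2, with GRCm38 as build and without versions or roles. Neither the annotation nor the strand setting of the counting is stated in those sources. The authors deposited whole-number read counts per Ensembl gene, not normalized. No row stood for unassigned reads.

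Of 18951 identifiers, 18868 matched GENCODE M21, which gave symbols, positions and lengths. Sample titles gave the groups and the replicate numbers. The cultures are called biological replicates, with no mention of separate isolations, so the p-values cover only the spread among these 6 libraries. No pair of replicates agreed within sampling noise (chi-square per degree of freedom at least 4.64).

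Counts were tested with edgeR 4.0.16 in R 4.3.3 (TMM, filterByExpr, robust quasi-likelihood fit, group as the only term), with Benjamini-Hochberg adjustment over 14621 genes and calls at 0.05. The SE was taken as the size of the log2 fold change over the root of its F statistic. Intervals from reads cover counting error only, since reads are not independent molecules. On simulated counts with 200 changed genes among 11900, the procedure recovered 76.1% of genes changed 1.5-fold, 91% changed 2-fold and 100% changed 4-fold, and called 0.0427% of unchanged genes. The simulation did not cover data in which most genes differ.

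Near-identical copies were sought with blastn 2.17.0 (at least 95% identity over at least 50% of coding bases) and found for 17 members; exon overlaps with counted genes were found for 24 tested members, and copies were not sought for other genes. Among the 39 members with neither, 25 rose (64.1%) and 8 fell (20.5%), beside 43.1% and 38.9% of all tested genes. Motifs were searched as exact letters on both strands. The members, gene lists and classes were chosen with earlier results of these data known. Named members are those changed at least 2-fold, the 8 largest rises and falls among called members with separate groups and at least 5 CPM, the 5 smallest p, the 5 fold changes nearest 0, the 5 highest and lowest levels per kb, 9 named by role, and members that start within 1000 bases of a gene on the other strand, some of which are named with it; of each other list, the 3 smallest p in each direction were named. One gene under this rule is not reported here. Alternatives were RLE, upper-quartile and unscaled totals, other filters, DESeq2 1.42.0, limma-voom 3.58.1, each library left out, the replicate number as a block, other thresholds, the mitochondrial transcripts left out and the longest transcript as length. The comparison could not be made without the doubtful libraries, as these are all 3 labelled si-Control.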

Additional observations from a re-analysis of the deposited data

How the results depend on the processing

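No member that passed the test changed direction under any alternative run, and the number passing was 59 to 65 of 77 except where at least a 1.5-fold change was required. At that size 22 members rose and 4 fell (13 and 3 of the Mrpl genes, 9 and 1 of the Mrps genes), as did 3 and 2 assembly factors, 2 translation factors fell, 4 synthetases rose and 2 fell, and 4 biogenesis regulators rose. Scaling moved the median of all genes by at most 0.03 on the log2 scale, and testing without a filter by 0.09. DESeq2 and RLE scaling gave the same 62 members. Mrps17, Mrpl2 and Mrpl49, named here after their values were seen, were lost at an adjusted p under 0.01 and without si-Control replicate 1, and Mrps17 also without si-Control replicate 3, without si-Rbm22 replicate 1 and among genes with 10 CPM in 3 libraries.

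Leaving out 1 library in turn gave 47 to 48 members higher and 12 to 17 lower (Mrpl 28 to 29 and 10 to 14, Mrps 19 and 2 to 3), medians of 0.34 to 0.40 for all members, 0.35 to 0.40 for Mrpl and 0.33 to 0.43 for Mrps, 2 to 3 synthetases lower and 0 to 2 biogenesis regulators lower. With 10 CPM in 3 libraries the Mrpl median was 0.43 and 2 synthetases were lower, as at an adjusted p under 0.01. A biogenesis regulator was lower in 1 case each with upper-quartile factors, library totals alone and no filter. Of members that did not pass, Mrps7 changed sign with upper-quartile factors (-0.0031), library totals or no filter (-0.01), and without single libraries it ran from -0.03 to 0.04, Mrps5 from -0.05 to 0.08 and Mrps26 from -0.04 to 0.11. Without mitochondrial transcripts the members' share was 0.322% in si-Rbm22 and 0.27% in si-Control libraries; the list of mitochondrial messages then has no value. With the longest transcript as length, medians were 26.8 CPM per kb (Mrpl) and 24.3 (Mrps) in si-Rbm22 and 25.2 and 18.7 in si-Control libraries. The cause of these shifts was not tested.

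With the replicate number as a block (replicate block), the same 62 members passed. Deviations of same-numbered libraries correlated at -0.0164, 0.00689 and 0.00841, so no pairing by number was seen. Whether same-numbered cultures were handled together cannot be told from these values.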

Other observations

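Levels varied little between replicate libraries: the median coefficient of variation over the 77 members was 5.82% in si-Rbm22 libraries and 4.44% in libraries labelled si-Control, with the highest values for Mrps16 (13.2% in si-Rbm22) and Mrpl47 (14.4% in si-Control), which was named after its values were seen.

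Rbm22 acts in splicing, and the number of introns was set beside the fold change as a description. Across the 77 members, which are genes of the same libraries and not replicates, Spearman's rho between intron number and log2 fold change was 0.15; across 13974 tested protein-coding genes it was 0.02. Between the level in libraries labelled si-Control and the fold change it was -0.62 for the members and -0.44 for protein-coding genes, but these quantities share the same values.

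Of the members with a promoter entry, at least 1 of the 3 motifs was present in 24 of 41 that rose (58.5%), 5 of 13 that fell (38.5%) and 11 of 14 that did not pass (78.6%). Of the members with the NRF1 motif, Mrpl9, Mrpl12, Mrpl32, Mrpl39, Mrpl44, Mrpl45 and Mrps9 rose, and Mrpl14 and Mrpl17 fell. Mrpl30, Mrpl57, Mrps21 and Mrps26 also hold it and did not pass. Those not named before are given here after their values were seen. Whether the motif goes with direction was not tested.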
